A study of Mus musculus with 10 samples.

Results

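The 10 genes described here belong to the circadian clock and its direct outputs: Per1, Per2, Nr1d1, Nr1d2, Dbp, Tef, Bhlhe40, Arntl, Clock and Cry1. They are 10 of 21946 named genes on the array, and the platform annotation gives them 17 probes, with 1 to 3 probes a gene. The list was chosen from the biology of the clock and also from the TCL1-AT minus WT log2 differences of these same arrays, so the differences of the members are given as descriptions without a p-value. Of the 17 probes, 11 were detected on at least 5 of the 10 arrays (detection p under 0.05), which left 8 of the 10 genes with a tested probe. Nr1d1 and Cry1 had none.

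The samples were sorted splenic monocytes of C57BL/6 mice aged 3 months. The 5 TCL1-AT samples came from mice carrying transplanted chronic lymphocytic leukaemia (CLL) cells of the Eµ-TCL1 strain, in which B cells express a TCL1 transgene, and were taken 6 weeks after transplantation. The 5 WT samples came from matched mice with no intervention and are labelled as pools, and the number of mice in a pool is not given. The gate kept lineage-negative, CD11b-positive cells with intermediate F4/80, low to intermediate CD11c and low MHC class II. Whether each TCL1-AT sample is 1 mouse is not given either, so the spread between samples may be partly technical. The hour of day at which spleens were collected is not given in the sources used here.

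In the mammalian clock, CLOCK and BMAL1 (the product of Arntl) bind E-box elements together and switch on Per and Cry genes, whose proteins then inhibit the pair. A second loop runs through the REV-ERB receptors (Nr1d1 and Nr1d2), which repress Arntl, and through ROR receptors, which activate it from the same elements. DBP and TEF, members of the PAR bZIP family, carry the rhythm to output genes through D-box elements, and BHLHE40 (DEC1) represses E-box genes and responds to many immune signals. Monocytes have such a clock, and it shapes their trafficking and their inflammatory genes.

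Promoter sequences are shown for genes of the list that were called lower in TCL1-AT in the fit described below and whose windows held a searched motif. Dbp was lower too, but its window held none of the motifs. Tef was lower by less than the others, with overlap between the groups. They are the 250 bases before an annotated start, 5′ to 3′ on the strand of the gene, from RefSeq in build GRCm38.p6. Capitals mark the E-box CACGTG, or the nuclear receptor element AGGTCA, which reads TGACCT on the opposite strand. Per1 has 2 annotated starts, and the window shown is that of the first, at chr11:69098699-69098948 on the plus strand. Tef lies at chr15:81802423-81802672 (first start) and chr15:81811164-81811413 (second start), both plus, and Nr1d2 at chr14:18239107-18239356 on the minus strand.
Per1: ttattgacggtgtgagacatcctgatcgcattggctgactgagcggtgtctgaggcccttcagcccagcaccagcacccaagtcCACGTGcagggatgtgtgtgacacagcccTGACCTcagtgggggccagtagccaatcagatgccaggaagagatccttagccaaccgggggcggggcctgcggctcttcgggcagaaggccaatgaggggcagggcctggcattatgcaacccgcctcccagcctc
Tef, first start: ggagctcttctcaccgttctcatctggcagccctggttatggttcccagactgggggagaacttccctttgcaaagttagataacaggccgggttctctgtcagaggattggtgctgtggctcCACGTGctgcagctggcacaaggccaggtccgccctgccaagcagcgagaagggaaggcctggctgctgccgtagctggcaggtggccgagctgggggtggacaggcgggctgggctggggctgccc
Tef, second start: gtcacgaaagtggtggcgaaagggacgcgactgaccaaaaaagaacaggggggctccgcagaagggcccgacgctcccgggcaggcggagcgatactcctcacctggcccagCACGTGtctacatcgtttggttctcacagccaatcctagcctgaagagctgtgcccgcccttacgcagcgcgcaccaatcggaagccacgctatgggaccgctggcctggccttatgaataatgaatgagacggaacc
Nr1d2: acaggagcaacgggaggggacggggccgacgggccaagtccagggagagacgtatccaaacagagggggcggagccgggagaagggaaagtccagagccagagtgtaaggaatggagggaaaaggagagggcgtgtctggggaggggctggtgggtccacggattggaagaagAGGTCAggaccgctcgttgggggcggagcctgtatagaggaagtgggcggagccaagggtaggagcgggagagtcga
The E-box began 166 bases before the first start of Per1, and 127 and 138 bases before the 2 starts of Tef. The window of the second Per1 start held none of the searched motifs. The nuclear receptor element stood 137 bases before the first start of Per1, on the opposite strand, and 77 bases before the start in Nr1d2, whose window held no E-box. Windows were found for 8 of the 10 genes, all except Per2 and Bhlhe40. Searched from 250 bases before to 50 after the start, 3 of those 8 genes (Per1, Tef and Cry1) held CACGTG, against 8.09% of 27025 genes with a window, and 4 (Per1, Nr1d2, Arntl and Clock) held AGGTCA on either strand, against 18.1%. A gene with several starts was counted if any of its windows held the letters. For AGGTCA these were only the second Arntl window and the third Clock window. No window of the 8 genes held the D-box as TTATGTAA or TTACGTAA on either strand, which 1.23% of all genes did. A match in these letters is a description and was not tied to the binding of any factor.

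In monocytes from leukaemic spleens, a repressor-loop gene (Nr1d2), a period gene (Per1) and the output factor Dbp stood below their WT levels, and Bhlhe40 stood above its WT level, without overlap between the groups. Nr1d2 was 2.64-fold lower, Per1 2.14-fold lower and Dbp 2.09-fold lower in TCL1-AT, and Bhlhe40 was 2.35-fold higher. The activators themselves differed little: Clock differed by 0.07 and Arntl by -0.27 on the log2 scale. Levels below are log2 signals after background correction and quantile normalization, each difference is TCL1-AT minus WT, and the standard error (SE) of a member's difference comes from the SDs of its 2 groups. An offset of 16 in the normalization compresses low signals, while the background correction widens their differences. The folds of dim probes therefore depend on the processing: without background correction Nr1d2 differed by -0.57 and Dbp by -0.62.

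**Figure D1:**
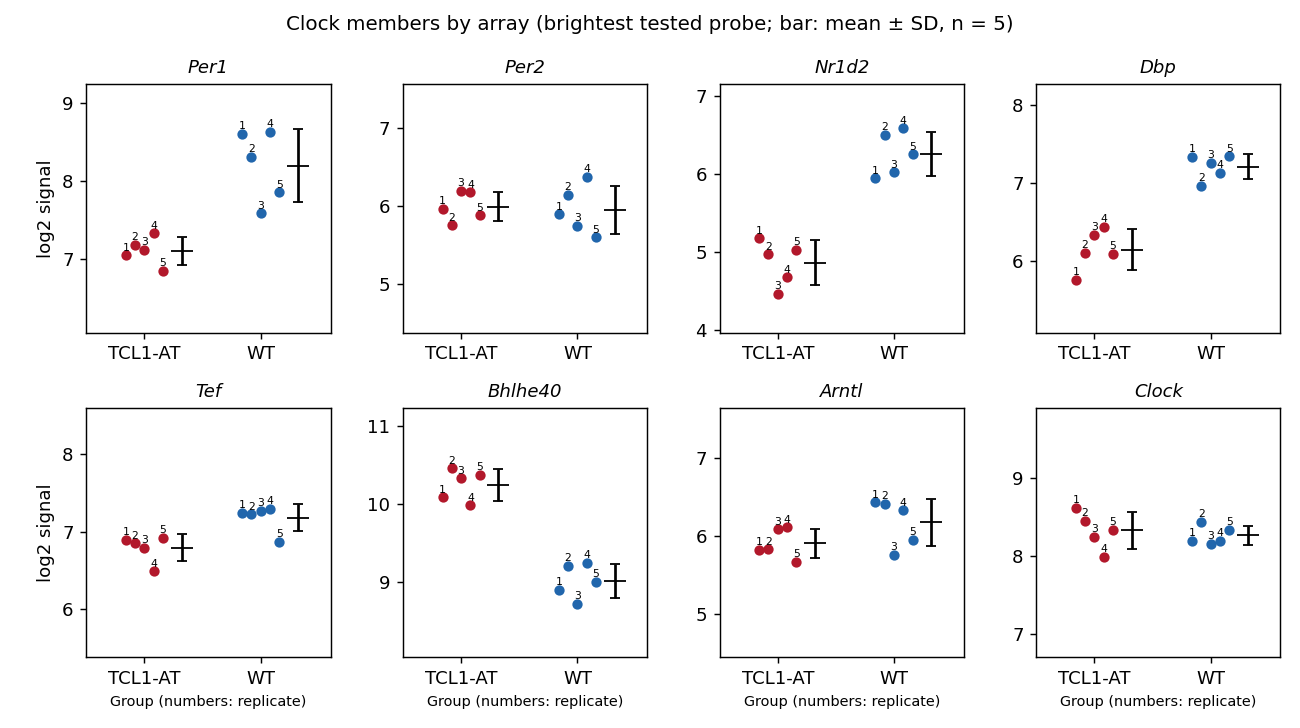
Log2 signal (vertical axis) of the 8 genes with a tested probe in TCL1-AT (red, left) and WT (blue, right) samples, 1 point per array with its replicate number, and the mean ± SD (n = 5 each) as a bar; every panel spans the same log2 range. The groups are apart for Per1, Nr1d2, Dbp and Bhlhe40 and overlap for Per2, Tef, Arntl and Clock.

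Among the repressors, Per1 encodes a period protein that inhibits CLOCK and BMAL1, and its transcription is also induced directly by glucocorticoids. Its brighter probe read 7.05, 7.18, 7.12, 7.33 and 6.85 on the TCL1-AT arrays 1 to 5, against 8.61, 8.31, 7.58, 8.63 and 7.86 on the WT arrays 1 to 5. The groups did not overlap, and the WT values were spread more widely, at an SD of 0.46 against 0.18 in TCL1-AT. The difference was -1.09 (SE 0.22). The second Per1 probe averaged 5.73 ± 0.20 over the TCL1-AT arrays and 6.81 ± 0.43 over the WT arrays (SD, n = 5 each), a difference of -1.07 (SE 0.21), again without overlap. On both probes WT 3 and WT 5 were the WT arrays with the lowest values. With the median raw intensity of each array as a covariate the difference of the brighter probe was -1.596.

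Per2, the paralogous period gene, gave no single answer, because its 3 probes differed in direction. The brightest read 5.96, 5.75, 6.19, 6.17 and 5.88 in TCL1-AT, against 5.89, 6.14, 5.75, 6.37 and 5.597 in WT. The groups overlapped fully, with a difference of 0.04 (SE 0.16). The second averaged 5.01 ± 0.42 over the TCL1-AT arrays and 5.47 ± 0.29 over the WT arrays (SD, n = 5 each), a difference of -0.46 (SE 0.23), with overlap. The third was detected on 4 TCL1-AT arrays and on no WT array, at a signal close to background. Its mean over all 5 TCL1-AT arrays, including the array without detection, was 1.22-fold above the lowest detected signals of the WT arrays. The mean of the 2 tested probes differed by -0.21, opposite in sign to the brightest probe, and that probe gave -0.125 with raw intensity as a covariate and -0.047 without WT 5.

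Nr1d2 encodes REV-ERB beta, a heme-binding repressor of Arntl. Its tested probe read 5.18, 4.97, 4.46, 4.68 and 5.03 in TCL1-AT, against 5.95, 6.50, 6.02, 6.59 and 6.25 in WT. All 5 TCL1-AT arrays lay below all 5 WT arrays, with a difference of -1.40 (SE 0.18), the largest in size of the 8 genes. In raw intensity, with nothing subtracted, the probe gave 110.1, 105.7, 93.5, 97.4 and 109.1 in TCL1-AT, against 129.1, 171.6, 119.8, 193.2 and 127.5 in WT. These signals stand not far above the median raw intensity of the arrays (90.3 to 93.4 in TCL1-AT and 80.4 to 92.1 in WT), and without background correction the difference was -0.57. A second Nr1d2 probe was detected on 0 TCL1-AT arrays and 2 WT arrays and differed by -0.15 (SE 0.10).

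Nr1d1, which encodes REV-ERB alpha, was near background throughout. Its single probe was detected on 1 array in all, WT 4, where it read 4.73, against 4.09 to 4.28 in TCL1-AT and 4.11 to 4.30 on the other WT arrays. Cry1, which encodes a cryptochrome that inhibits CLOCK and BMAL1 together with the period proteins, was not detected on any array. Its single probe read 4.09 to 4.23 in TCL1-AT and 4.09 to 4.15 in WT. No fold is given for either gene, since at these signals a difference was not detectable.

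Of the output factors, Dbp encodes the D-box activator whose transcript is among the strongest cycling ones in mouse organs. It read 5.75, 6.10, 6.33, 6.44 and 6.09 in TCL1-AT, against 7.33, 6.96, 7.26, 7.13 and 7.34 in WT. The groups did not overlap, and the difference was -1.06 (SE 0.14), or -0.62 without background correction. Tef, a related D-box activator, was lower by less. Its brighter probe read 6.90, 6.85, 6.79, 6.49 and 6.92 in TCL1-AT, against 7.24, 7.22, 7.27, 7.29 and 6.87 in WT. WT 5 stood apart from the other WT arrays and fell among the TCL1-AT values, and the difference was -0.39 (SE 0.11), or -0.249 without background correction. A second Tef probe was detected on 0 TCL1-AT arrays and 1 WT array.

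Bhlhe40 was the one gene of the list that was clearly higher. It encodes a basic helix-loop-helix repressor that competes for E-box elements and is induced by cytokines and hypoxia in many cell types. The probe read 10.09, 10.46, 10.33, 9.98 and 10.38 in TCL1-AT, against 8.90, 9.21, 8.72, 9.25 and 9.00 in WT. The groups were well apart, with a difference of 1.23 (SE 0.13). In raw intensity it ran from 966.7 to 1575.2 in TCL1-AT and from 422.3 to 871.8 in WT, so even the dimmest TCL1-AT array exceeded the brightest WT array before any normalization. Without background correction the difference was 1.13, close to the corrected value.

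The 2 activators gave small differences. Arntl read 5.83, 5.83, 6.09, 6.12 and 5.68 in TCL1-AT, against 6.44, 6.42, 5.77, 6.33 and 5.95 in WT. The groups overlapped because WT 3 and WT 5 were low, and the difference was -0.27 (SE 0.16), or -0.54 with raw intensity as a covariate and -0.136 without background correction. Clock, on its brightest probe, read 8.62, 8.45, 8.25, 7.99 and 8.34 in TCL1-AT, against 8.20, 8.44, 8.16, 8.19 and 8.33 in WT, and the difference was 0.07 (SE 0.12), or -0.006 without TCL1-AT 1. A second Clock probe differed by 0.05 (SE 0.19), and the last of its 3 probes was not detected on any array. The wider spread of Clock in TCL1-AT came from TCL1-AT 1 and TCL1-AT 4, the highest and the lowest of all 10 arrays.

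**Figure D2:**
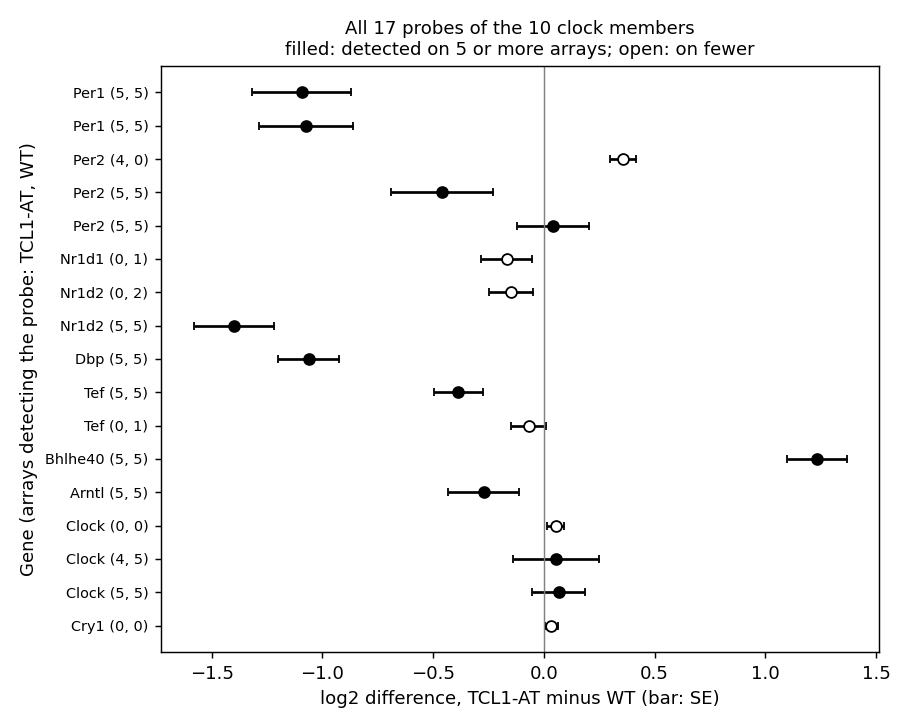
Log2 difference, TCL1-AT minus WT (horizontal axis), with its SE as a bar for each of the 17 probes of the 10 genes (vertical axis), labelled with the number of TCL1-AT and WT arrays that detected the probe. Filled points were detected on 5 or more arrays. Both Per1 probes lie near -1.1, the 3 Per2 probes fall on both sides of 0, and the open points other than the Per2 one at 0.36 lie between -0.17 and 0.05.

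WT arrays varied together in part of the list. WT 3 and WT 5 held the lowest WT values of Per1 (7.58 and 7.86), of the brightest Per2 probe (5.75 and 5.597) and of Arntl (5.77 and 5.95). WT 4 had the highest WT value of Per1 (8.63), of Per2 (6.37 and, on the second probe, 5.98) and of Nr1d2 (6.59), and was the only array that detected Nr1d1. Dbp did not follow this order, with WT 5 (7.34) and WT 1 (7.33) highest and WT 2 (6.96) lowest. Other genes followed it only in part. Nr1d2 was lowest on WT 1 (5.95). Tef was lowest on WT 5 (6.87) and highest on WT 4 (7.29), but WT 3 came next to it (7.27). Clock was lowest on WT 3 (8.16), but higher on WT 5 (8.33) than on WT 4 (8.19). Bhlhe40 was lowest on WT 3 (8.72) and highest on WT 4 (9.25), with WT 5 between them (9.00). WT 3 and WT 5 also had the lowest median raw intensity of the 10 arrays, 80.5 and 80.4, against 84.1 to 92.1 on the other WT arrays, and the part of raw intensity in this pattern was not tested.

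In limma's fit over all 14859 features (each named gene by its brightest probe, and unnamed probes on their own), calls were made where the p adjusted by Benjamini-Hochberg lay under 0.05. Of the 8 tested genes of the list 5 were called, where 27.7% of all features were. Called lower were 4 (Nr1d2, Per1, Dbp and Tef), against 15.4% of all features, and called higher was 1 (Bhlhe40), against 12.3%. The groups did not overlap for 4 of the 8, against 20.5% of all features. Since the contrast helped to choose the list, nothing is read from these counts. The call of Tef was lost with raw intensity as a covariate (-0.53) and without WT 3 (-0.36) or WT 4 (-0.36). The median difference was -0.33 over the 8 genes and 0.02 over all features, and the median size of the difference, sign ignored, was 0.72 against 0.22.

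**Figure D3:**
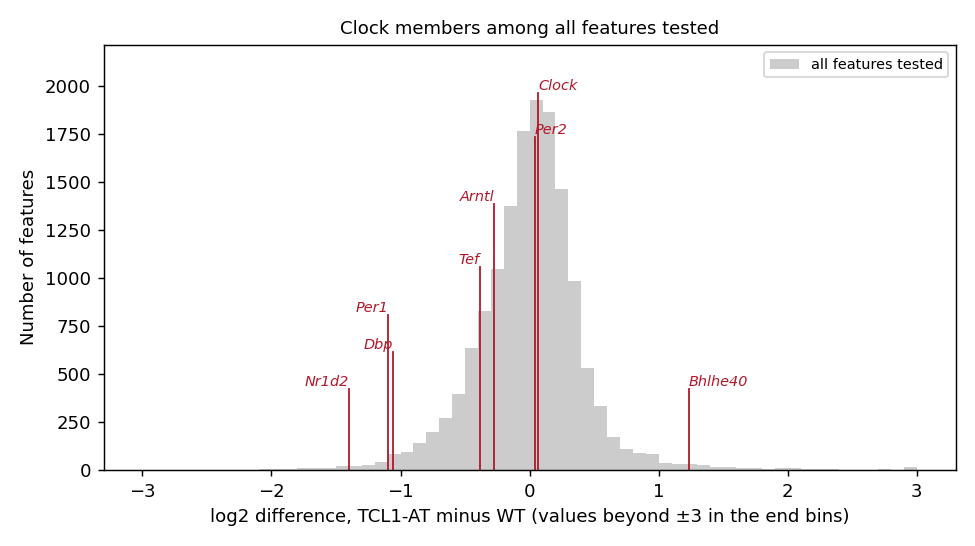
Histogram of the log2 difference, TCL1-AT minus WT (horizontal axis), of all 14859 features tested (vertical axis: number of features), with red lines at the 8 tested clock genes, whose heights only separate the labels. Nr1d2, Per1 and Dbp lie in the left tail and Bhlhe40 in the right tail, while Tef, Arntl, Per2 and Clock lie within the bulk.

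Larger differences than that of Nr1d2 in either direction were seen for 1.5% of all features, than that of Bhlhe40 for 2.1%, of Per1 for 2.81% and of Dbp for 3.08%. The corresponding shares were 25.5% for Tef, 40.7% for Arntl, 83.4% for Clock and 89.3% for Per2. The profiles over the 10 arrays, each centred on its own mean, were then compared by their root mean square difference. Nr1d2 was most like Wipf1 (0.15 log2 units), Dusp6 (0.15) and Emb (0.16), and Bhlhe40 most like Tmem63b (0.12), Bcl2a1b (0.13) and Col5a1 (0.13). Per1 was most like Ptp4a1, Cd36 and Gpr83 (each 0.20), and Dbp most like Hlcs (0.11), Dusp22 (0.12) and 9130218E19Rik (0.14). None of the 24 genes found in this way for the 8 genes was itself on the list. The search ran over 11506 named genes, so few places were open to the list and nothing is read from this. The values of the closest genes are also not comparable with those of the fixed pairs below. Between genes of the list that were lower, the root mean square difference was 0.37 for Per1 and Dbp, 0.41 for Per1 and Nr1d2 and 0.46 for Nr1d2 and Dbp. With Tef it was 0.46 for Dbp, 0.49 for Per1 and 0.57 for Nr1d2. Tef was closer to genes that were not called, at 0.29 for Clock, 0.29 for Arntl and 0.33 for Per2. The closest pair of the list was Per2 and Arntl (0.23), and Per1 and Arntl (0.44) were closer than Nr1d2 and Dbp. A shared profile of the lower genes is therefore not read from these values.

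Among 42 other genes of the clock and its outputs, 24 had a tested probe, of which 4 rose and 4 fell in TCL1-AT, or 33.3% called against the background of 27.7%. Tsc22d3, Rora, Tspan4 and Csnk1e fell, and Il1b, Btrc, Alas1 and Csnk1d rose. The median difference was -0.14, against 0.02 over all features. These lists too were chosen with earlier results of these data known, so nothing is read from this share or this median. The same limit holds for the p-values of their genes. The adjusted p-values below come from the same limma fit over all features, with its SE, and group values are means ± SD over 5 arrays each. With raw intensity as a covariate 2 of the 24 were called higher and 1 lower.

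**Figure D4:**
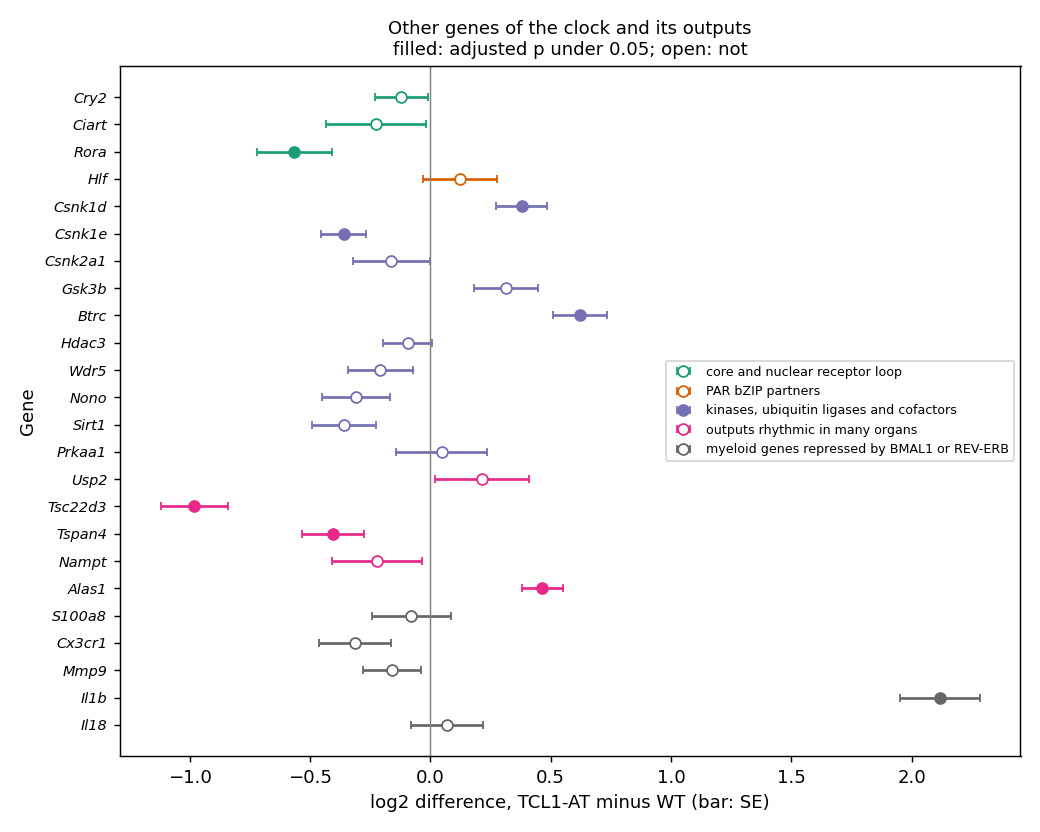
Log2 difference, TCL1-AT minus WT (horizontal axis), with the SE of the limma fit for the 24 other clock genes with a tested probe (vertical axis), coloured by list. Filled points have an adjusted p under 0.05: Tsc22d3, Rora, Tspan4 and Csnk1e lie left of 0, and Btrc, Alas1, Csnk1d and Il1b right of it.

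In the core and nuclear receptor loops, 3 of 9 listed genes were tested, and 1 fell. Rora, which encodes the activating receptor that shares its elements with the REV-ERB proteins, averaged 4.76 ± 0.35 in TCL1-AT, against 5.32 ± 0.17 in WT, a difference of -0.57 (SE 0.16, adjusted p = 0.0156). Its groups overlapped, and the call was lost with raw intensity as a covariate (adjusted p = 0.174). Without background correction its difference was -0.179. Cry2, the second cryptochrome gene, differed by -0.12 (SE 0.11, adjusted p = 0.449), and Ciart, a circadian repressor, by -0.23 (SE 0.21, adjusted p = 0.45), with its other tested probe at -0.53. Per3, Npas2, Arntl2, Bhlhe41 and Rorb were on the array but detected on too few arrays to test. Of the 2 PAR bZIP partners, Hlf differed by 0.12 (SE 0.15, adjusted p = 0.591) and Nfil3 was not analysed here.

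Of 15 kinases, ubiquitin ligases and cofactors that set the stability or activity of clock proteins, 10 were tested, 2 rose and 1 fell. The 2 casein kinase genes whose products phosphorylate PER proteins moved in opposite directions. Csnk1d averaged 10.17 ± 0.16 in TCL1-AT, against 9.79 ± 0.15 in WT (difference 0.38, SE 0.11, adjusted p = 0.0183), and Csnk1e 9.20 ± 0.09 in TCL1-AT, against 9.56 ± 0.12 in WT (difference -0.36, SE 0.09, adjusted p = 0.011). Of the 5 tested probes of Csnk1d the others ran from -0.05 to 0.42, and the call was lost with the mean of its probes (adjusted p = 0.0508) and without TCL1-AT 3 (adjusted p = 0.0512). Btrc, a ubiquitin ligase subunit that targets PER proteins for degradation, rose to 7.11 ± 0.14 in TCL1-AT, against 6.49 ± 0.19 in WT (difference 0.62, SE 0.11, adjusted p = 0.00115, or 0.379 without background correction). With raw intensity as a covariate none of the 3 was called (adjusted p = 0.155 for Csnk1d, 0.213 for Csnk1e and 0.0519 for Btrc). Hdac3, the deacetylase recruited by REV-ERB proteins, differed by -0.09 (adjusted p = 0.535), Sirt1 by -0.36 (adjusted p = 0.058) and Gsk3b by 0.31 (adjusted p = 0.0973). The call of Sirt1 was gained without WT 1 (adjusted p = 0.0347), and that of Gsk3b likewise (adjusted p = 0.0463).

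Of 7 output genes that cycle in many mouse organs, 5 were tested, 1 rose and 2 fell. Tsc22d3, which encodes the glucocorticoid-induced leucine zipper protein GILZ, read 11.41, 10.91, 10.75, 11.09 and 10.82 in TCL1-AT, against 12.07, 12.30, 11.80, 11.85 and 11.86 in WT. All TCL1-AT arrays lay below all WT arrays, with a difference of -0.98 (SE 0.14, adjusted p = 0.000191), although a dimmer probe gave -0.19 and the mean of both probes -0.583 (adjusted p = 0.0172). Alas1, the first enzyme of heme synthesis, rose to 10.85 ± 0.07 in TCL1-AT, against 10.39 ± 0.09 in WT (difference 0.47, SE 0.09, adjusted p = 0.00146). Tspan4, a tetraspanin gene, fell by 0.40 (SE 0.13, adjusted p = 0.0335), a call lost when any 1 of 7 arrays was left out (TCL1-AT 2, 3 or 5, or WT 1, 2, 4 or 5, adjusted p = 0.0552 to 0.0842) and with raw intensity as a covariate (adjusted p = 0.141). Nampt, the enzyme of NAD salvage, differed by -0.22 (adjusted p = 0.409) and Usp2, a deubiquitinase gene, by 0.21 (adjusted p = 0.447). Usp2 was dim (4.94 in TCL1-AT and 4.73 in WT) and was not detected on all 10 arrays.

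Of 9 myeloid genes known from mouse studies to be repressed by BMAL1 or REV-ERB proteins, 5 were tested, 1 rose and 0 fell. Il1b, which encodes interleukin-1 beta, read 12.34, 11.35, 11.96, 11.69 and 11.86 in TCL1-AT, against 9.68, 9.51, 10.04, 9.83 and 9.56 in WT. The groups were far apart, with a difference of 2.12 (SE 0.17, adjusted p = 1.23e-06). The chemokine receptor gene Cx3cr1 differed by -0.31 (SE 0.15, adjusted p = 0.14), S100a8, an alarmin subunit, by -0.08 (adjusted p = 0.757) and Il18 by 0.07 (adjusted p = 0.762). The other tested probe of Il18 differed by 0.55, and the mean of both by 0.311 (adjusted p = 0.0555). Ccl2, Il6 and Nlrp3 were detected on too few arrays to test, and Ccl8 was not analysed here.

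Of the monocyte markers 8 were tested, 2 rose and 2 fell. Lyz2 (14.30 in TCL1-AT against 14.01 in WT) and Spn (9.7 against 8.5) rose, and Adgre1 (9.39 against 10.30) and Fcgr3 (9.42 against 11.27) fell. The summed normalized linear signal of 9 genes with a probe, offset removed, overlapped between the groups. It was 28100 to 30100 in TCL1-AT and 28100 to 29700 in WT. Lyz2 was by far the brightest of these genes, so the sum says little about the others. The sums of some other cells' markers did not overlap. T cell markers (5 with a probe, 3 of 3 tested fell, Cd8a not detected) summed to 71.1 to 103 in TCL1-AT and 224 to 325 in WT. B cell markers (6 with a probe, 1 of 3 tested rose) summed to 517 to 903 in TCL1-AT and 385 to 457 in WT, erythroid markers (3 with a probe, 2 of 2 tested rose) to 1610 to 4560 in TCL1-AT and 233 to 1260 in WT, conventional dendritic cell markers (4 with a probe, 1 of 2 tested rose, Xcr1 not detected) to 43.3 to 70.8 in TCL1-AT and 14 to 33.7 in WT, and red pulp macrophage markers (4 with a probe, 1 of 3 tested rose and 1 fell, Cd5l not detected) to 1010 to 1220 in TCL1-AT and 603 to 746 in WT. The higher B cell, conventional dendritic cell and red pulp macrophage sums each came mainly from 1 gene. Cd79b rose (9.13 in TCL1-AT against 8.53 in WT), but Cd22 (5.79 against 6.00) and Ms4a1 (4.36 against 4.38) did not. Zbtb46 rose (5.85 against 4.29), but Clec9a did not (4.78 against 4.85). Spic rose (9.11 against 7.45), while Hmox1 was not called (9.04 against 8.93) and Vcam1 fell (4.49 against 5.025). Neutrophil, NK cell and plasmacytoid dendritic cell markers overlapped between the groups. The neutrophil sums (6 with a probe, 0 of 6 tested rose or fell) were large, near those of the monocyte markers. They ran from 17300 to 32500 in TCL1-AT and from 20200 to 31200 in WT. S100a8, listed above among myeloid genes, was the brightest of these genes (13.62 in TCL1-AT and 13.70 in WT). The neutrophil sums therefore do not give the share of neutrophils in the samples. NK cell markers summed to 7.37 to 12.8 in TCL1-AT and 8.19 to 11 in WT, and plasmacytoid dendritic cell markers to 35.5 to 107 in TCL1-AT and 37 to 67.3 in WT. The part of these cells in the differences above was not tested, and in sorted bulk RNA fewer cells of a type and less RNA per cell cannot be told apart. Every array detected 42.9% to 45.3% of 46237 probes.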

How the data were processed

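Per the labels' protocols, biotin-labelled cRNA from 150 ng of total RNA was hybridised to Illumina arrays. The deposited non-normalized table gives every probe's linear intensity on every array with its detection p-value, per the file headers. The authors' series matrix holds log2 values, whose processing is not given in the sources used here; they differed by at most 0.00043 from neqc of limma 3.58.1 (R 4.3.3; normexp with an offset of 16, quantile normalization), with a median of 4.30 on every array, and were used as deposited. Their direction was found from that match.

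The filter kept 20241 of 46237 probes, those with a detection p under 0.05 on 5 arrays or more. Symbols came from the platform annotation (35784 probes with 1 symbol, 0 with several, 10453 unnamed), updated through a RefSeq table by Entrez ID for 28620 probes and by accession for 2637. The brightest probe stood for a gene, giving 14859 features, fitted with limma's lmFit and eBayes, 2-sided, with Benjamini-Hochberg adjustment over all of them. The fit was tested on simulated data.

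The members and lists were chosen with earlier results of these data known. Every member probe was described. Of each other list, up to 6 called genes with the lowest p and up to 3 brightest genes not called were named, and 3 most alike genes for the 4 members with the largest differences. Alternatives covered background correction, normalization, the detection filter, probe averaging, raw intensity as a covariate, a replicate block and leaving out each array. The number of arrays limits the precision. The labels do not say that samples with equal replicate numbers share anything, so whether they are paired is unknown. The correlation of their deviations from the group means ran from -0.174 to 0.201 over the 5 pairs, which cannot settle it.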

Additional observations from a re-analysis of the deposited data

Results flagged for a closer look

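In 6 of 76 groups of 5 arrays examined, 1 array stood apart by a gap above 0.71 of the range of its group, where chance flags about 1 group in 20. WT 5 was lowest for the brighter Tef probe, at 6.87 against 7.22 to 7.29 on the other WT arrays, and highest for the second, barely detected Tef probe, at 4.53 against 4.08 to 4.19. WT 4 was highest for the second Per2 probe, at 5.98 against 5.28 to 5.45. TCL1-AT 4 was lowest for the second Clock probe, at 4.34 against 5.12 to 5.26 on the other TCL1-AT arrays, and was the array of the 5 on which that probe was not detected. TCL1-AT 4 was also lowest for S100a8, at 13.06 against 13.70 to 13.90. TCL1-AT 3 was highest for the undetected Nr1d1 probe, at 4.28 against 4.09 to 4.12.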

How the results depend on the processing

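Over the 18 alternatives run, the difference ranged from -1.596 to -0.815 for Per1, from -1.48 to -0.569 for Nr1d2, from -1.135 to -0.624 for Dbp and from 1.13 to 1.299 for Bhlhe40. These genes were chosen partly from this contrast, so the ranges are a description. The median difference of the clock genes, -0.33, was -0.192 without background correction, -0.22 without a detection filter (10 genes) and -0.535 with median raw intensity as a covariate. That covariate called 779 features higher and 1067 lower, in place of 1828 and 2291, and 2 other clock genes higher and 1 lower, in place of 4 and 4; it turned Usp2 to -0.168 and S100a8 to 0.017, neither called. Raw intensity nearly followed the groups (90.3 to 93.4 in TCL1-AT, 80.4 to 87.8 on WT 2 to WT 5, 92.1 on WT 1). This fit therefore cannot separate intensity from group well, and its fewer calls are not read further. Leaving out 1 array gave 1438 to 2047 features higher and 1880 to 2307 lower, 3 to 5 other clock genes higher and 3 to 4 lower, a median of -0.397 to -0.29, and -0.162 to 0.06 for S100a8. The replicate block called 1506 features higher and 1982 lower, 4 and 4 other clock genes, with a median of -0.33 for the clock genes, and did not call Tef; each array correlated best with its own number in 1 of 5 pairs. Tspan4 was not called with median scaling (-0.327), without background correction (-0.144) or without a detection filter (adjusted p = 0.0663), and Sirt1 was called without background correction (-0.254) and with detection required on all 10 arrays. Median scaling moved the median of all features to 0.07. Nr1d1 and Cry1 lay at background, where no difference could be seen.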
